A study of Mus musculus with 4 samples.

Results

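The 10 genes described here are the 4 Fgf receptor genes Fgfr1, Fgfr2, Fgfr3 and Fgfr4 and 6 genes that respond to Fgf signals and feed back on them: Spry1, Spry2, Spry4, Dusp6, Etv4 and Etv5. Accessible regions were assigned to one of these genes when its transcription start was the nearest protein-coding start to the centre of the region, or lay within 2.5 kb of that centre. By this rule the genes held 61 of the 42613 regions listed for mouse forelimb buds at E9.5 and 54 of the 46765 regions listed at E10.5, out of 22380 protein-coding genes. The regions come from ATAC-seq, which maps open chromatin by the adapters that a transposase can insert there, on wild-type embryos of the NMRI strain. Each stage had 2 biological replicates of 1 forelimb pair each, and the processed data are 1 combined list of regions per stage. The earlier buds carried adjoining trunk tissue (their protocol gives day 9.75), whereas the E10.5 buds are described without trunk, and their tissue label adds hindlimb buds where their other labels name forelimb buds alone. Stage and trunk tissue therefore cannot be told apart in any value given here. There was no value per replicate and the read depth is unknown, so differences between stages have no error from replicates and none was tested. Shares are given with 95% Wilson intervals, which cover counting error only.

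Fgf ligands bind receptor tyrosine kinases of the Fgfr family, and the receptors signal through Ras and the MAP kinases ERK1 and ERK2. In limb buds, Fgf ligands made by the apical ectodermal ridge and Fgf10 made by the mesenchyme keep each other active and drive outgrowth. Sprouty proteins and the phosphatase Dusp6, which inactivates ERK, are induced by Fgf signals and dampen them, whereas Etv4 and Etv5 are ETS transcription factors that carry part of the transcriptional response.

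Each region carries the authors' score, 10 times the negative log10 of the best peak-calling p-value among the replicates, which grows with depth. Many scores stop at 3100. At E9.5, 843 regions scored 3100 or more and 682 of them exactly that, and among E10.5 regions these numbers were 450 and 355, so the order of regions at 3100 or more carries little information. Scores are therefore also given as the percentile of a region within its own list. Regions that overlap the other list by 1 bp or more are called shared and the rest stage-specific. Those with a centre at most 2.5 kb from a start are called promoter-proximal, and all others distal.

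The stretches of sequence printed first are the open chromatin on which the later comparisons turn. For the 4 genes with the most shared distal regions, the 300 bases around the middle of a shared distal region are shown, taken from the one with the highest E10.5 score among those that overlap a single region of the other list. This leaves out the wide E10.5 region over the Dusp6 gene itself, which scored 3100 and overlaps several. These lie at chr8:26653882-26654181 in an intron of Fgfr1, at chr7:137208036-137208335 downstream of Fgfr2, at chr14:106319975-106320274 upstream of Spry2 and at chr10:98761644-98761943 downstream of Dusp6, all mm9 and printed on the plus strand. The 250 bases upstream of the annotated 5′ end of Dusp6 (chr10:98725615-98725864, plus strand), Spry2 (chr14:106296037-106296286, minus strand) and Etv5 (chr16:22439793-22440042, minus strand) are shown because the regions over these starts had the highest E9.5 promoter scores, leaving aside the region in Ctbp2 that counts for Fgfr2 and also scored 3100. The last stretch, chr11:101676578-101676877 on the plus strand, lies within the E9.5-specific region 30.0 kb upstream of Etv4 and was chosen after its score was seen. Letters are those of the C57BL/6J reference and not of the NMRI embryos. Capitals mark matches to the motifs TGACTCA (AP-1), CTGTCA (MEIS/PKNOX) and GGCGCC (BMP-type SMAD) on either strand, and 3 of the 8 stretches held such a match.
Fgfr1 intron: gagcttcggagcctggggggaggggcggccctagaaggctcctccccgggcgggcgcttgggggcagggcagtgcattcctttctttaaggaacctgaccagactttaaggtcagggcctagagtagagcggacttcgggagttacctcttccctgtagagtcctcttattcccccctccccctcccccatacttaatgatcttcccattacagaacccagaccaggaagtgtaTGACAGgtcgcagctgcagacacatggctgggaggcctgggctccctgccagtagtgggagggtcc
Fgfr2 downstream: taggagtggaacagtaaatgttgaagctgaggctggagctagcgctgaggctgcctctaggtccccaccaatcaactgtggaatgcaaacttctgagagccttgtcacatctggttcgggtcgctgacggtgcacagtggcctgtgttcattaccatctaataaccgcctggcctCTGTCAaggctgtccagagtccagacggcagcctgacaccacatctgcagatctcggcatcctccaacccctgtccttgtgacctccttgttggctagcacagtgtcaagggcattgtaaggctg
Spry2 upstream distal: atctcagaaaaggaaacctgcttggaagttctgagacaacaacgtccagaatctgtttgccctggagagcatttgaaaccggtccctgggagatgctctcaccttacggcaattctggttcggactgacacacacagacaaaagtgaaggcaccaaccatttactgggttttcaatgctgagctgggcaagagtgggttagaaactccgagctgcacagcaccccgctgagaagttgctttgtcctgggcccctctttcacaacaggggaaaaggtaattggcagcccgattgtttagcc
Dusp6 downstream: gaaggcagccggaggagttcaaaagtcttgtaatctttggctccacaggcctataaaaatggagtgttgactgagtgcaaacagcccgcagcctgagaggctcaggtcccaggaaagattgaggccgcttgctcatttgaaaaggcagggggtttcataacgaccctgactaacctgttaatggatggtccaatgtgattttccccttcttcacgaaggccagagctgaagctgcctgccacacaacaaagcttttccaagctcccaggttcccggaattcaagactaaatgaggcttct
Dusp6 5′ end: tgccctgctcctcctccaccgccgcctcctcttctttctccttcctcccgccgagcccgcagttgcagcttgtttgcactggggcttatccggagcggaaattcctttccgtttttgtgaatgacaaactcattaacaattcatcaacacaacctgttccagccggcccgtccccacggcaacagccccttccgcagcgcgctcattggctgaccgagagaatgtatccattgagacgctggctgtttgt
Spry2 5′ end: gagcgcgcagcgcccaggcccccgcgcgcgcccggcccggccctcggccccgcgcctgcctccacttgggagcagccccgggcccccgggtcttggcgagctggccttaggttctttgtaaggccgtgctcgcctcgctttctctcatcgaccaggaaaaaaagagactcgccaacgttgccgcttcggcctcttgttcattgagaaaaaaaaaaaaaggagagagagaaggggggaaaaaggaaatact
Etv5 5′ end: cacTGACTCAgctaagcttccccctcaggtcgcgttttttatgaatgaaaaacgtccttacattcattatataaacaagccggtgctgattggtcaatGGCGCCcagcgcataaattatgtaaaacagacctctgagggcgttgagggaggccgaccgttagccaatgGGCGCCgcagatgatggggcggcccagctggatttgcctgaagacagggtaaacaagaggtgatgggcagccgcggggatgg
Etv4 upstream, E9.5-specific: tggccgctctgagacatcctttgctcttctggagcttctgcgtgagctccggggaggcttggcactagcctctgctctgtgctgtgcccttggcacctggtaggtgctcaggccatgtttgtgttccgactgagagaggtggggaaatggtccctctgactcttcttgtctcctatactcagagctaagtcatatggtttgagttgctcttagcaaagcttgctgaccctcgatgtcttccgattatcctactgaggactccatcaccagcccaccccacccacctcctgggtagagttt

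The Fgfr1 stretch held 1 MEIS/PKNOX match and came from a region that scored 697.89 in the E9.5 list and 641.75 in the E10.5 list. The Fgfr2 stretch, also with 1 MEIS/PKNOX match, came from a region that scored 193.70 and 799.82. The Etv5 stretch held 1 AP-1 and 2 SMAD matches within a region that scored 3129.08 at E9.5 and 2506.18 at E10.5. No motif of the set was found in the stretches of Spry2, Dusp6 and Etv4, which says only that these letters were not in these windows.

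In total, 38 of the 61 E9.5 regions (62.3%, interval 49.7 to 73.4) were shared with E10.5, and 36 of the 54 E10.5 regions (66.7%, interval 53.4 to 77.8) were shared with E9.5. The 23 E9.5-specific regions were 37.7% of the E9.5 regions, against 29.9% over the whole list. The 18 E10.5-specific regions were 33.3%, against 35.0% over the whole list. Both whole-list shares lay within the intervals of the 10 genes. Of the distal regions alone, 20 of the 45 in the E9.5 list (44.4%) and 18 of the 42 in the E10.5 list (42.9%) were stage-specific, where the lists as a whole had 40.3% and 49.6%. In the higher-scoring 50% of each list, 7 of 33 regions were specific to E9.5 and 4 of 33 to E10.5, beside 10.8% and 18.1% for all regions scoring as high.

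Promoter-proximal regions made up a smaller share of the regions of these genes than of the lists. Both list shares lay within the intervals, at E9.5 only just. At E9.5 they were 16 of 61 (26.2%, interval 16.8 to 38.4), against 38.3% of the whole list. Without the region in Ctbp2 that counts for Fgfr2 they were 15 of 60 (25.0%, interval 15.8 to 37.2). The E9.5 list share then lay above the interval. At E10.5 they were 12 of 54 (22.2%, interval 13.2 to 34.9), against 32.9%. Without the region in Ctbp2 they were 11 of 53 (20.8%, interval 12.0 to 33.5), which still included the list share. A region near a start was listed for all 10 genes at E9.5 and for 8 at E10.5, compared with 65.2% and 62.6% of all protein-coding gene symbols. The 2 genes without one at E10.5 were Fgfr4 and Dusp6, and for Dusp6 this came from the width of the region over its start.

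Stage-specific regions of the receptor genes were more numerous at E9.5 and those of the Sprouty genes at E10.5. Every interval of these 2 groups included the whole-list share of its stage (29.9% for the E9.5 list, 35.0% for the E10.5 list). For the receptors at E9.5 this held only narrowly, with the region in Ctbp2 counted. Without that region 15 of 32 receptor regions (46.9%) were E9.5-specific, and the interval of that share was not calculated. The receptors had 15 stage-specific regions of 33 at E9.5 (45.5%, interval 29.8 to 62.0) and 5 of 23 at E10.5 (21.7%, interval 9.66 to 41.9). Fgfr2 alone held 10 of these 15 and 4 of these 5, and Fgfr1 had 1 at each stage. The 3 Sprouty genes had 5 of 14 at E9.5 (35.7%, interval 16.3 to 61.2) and 11 of 20 at E10.5 (55.0%, interval 34.2 to 74.2). None of the 7 Dusp6 regions at E9.5 was stage-specific (interval up to 35.4%), and 2 of 7 were at E10.5. Etv4 and Etv5 together had 3 of 7 stage-specific regions at E9.5 and none of 4 at E10.5. The intervals of both stages overlapped in each of these groups, and the difference between groups was not tested. Among regions in the higher-scoring 50% of their own list, 5 of 15 receptor regions were E9.5-specific and 1 of 15 was E10.5-specific. The Sprouty genes had 1 of 8 and 3 of 9, and all regions scoring as high had 10.8% and 18.1%. When the other list was cut to its higher-scoring 50% as well, the receptors had 5 stage-specific regions of 15 at either stage. The Sprouty genes then had 2 of 8 and 3 of 9. The receptor counts thus no longer differed between stages. The share over all regions was not calculated for this cut, so these counts cannot be set against the lists.

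**Figure D1:**
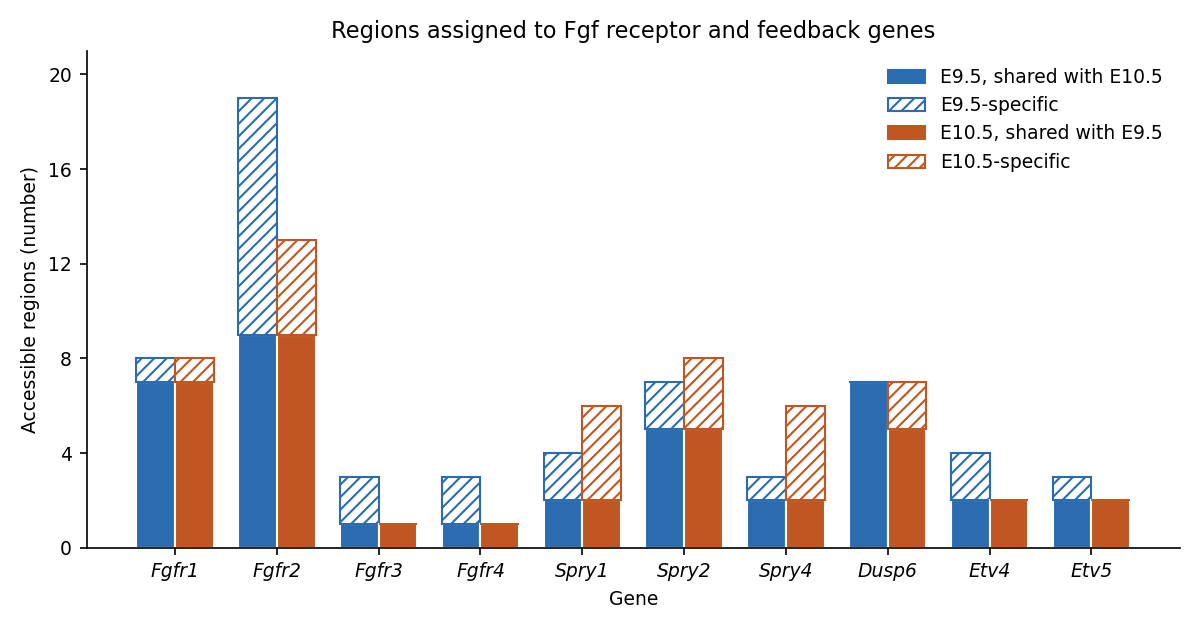
Number of accessible regions (vertical axis) assigned to each of the 10 genes (horizontal axis) at E9.5 (blue) and E10.5 (orange). Filled bars are regions shared between the lists and hatched bars are stage-specific regions. Fgfr2 had the most regions at both stages (19 and 13), and Spry1 and Spry4 each had 4 E10.5-specific regions.

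Fgfr1, a receptor active in limb bud mesenchyme, lies at chr8:26624126-26686186 and had 8 regions at each stage, of which 7 were shared. Its highest-scoring promoter-proximal region (chr8:26628770-26630624 at E9.5) lay inside the gene near internal starts, not over the annotated 5′ end. It scored 1329.50 at E9.5 (percentile 85.6) and 580.79 at E10.5 (percentile 75.0). A second promoter-proximal region, 1.29 kb into the gene, scored 516.74 and 290.35. Thus both of these regions were listed at both stages and scored lower at E10.5. Fgfr1 has 13 annotated starts, so they do not stand for all of them. The highest-scoring distal region, the one printed above, lay 11.2 kb downstream of a start in an intron, with 697.89 at E9.5 and 641.75 at E10.5. A neighbouring intronic region scored 531.88 and 544.27, and a region 144.7 kb upstream scored 376.84 and 623.53. The stage-specific regions of Fgfr1 were 1 intronic E9.5 region that scored 173.62 and 1 E10.5 region 73.1 kb upstream that scored 102.14, both in the lower-scoring 50% of their lists. When starts of genes of all types competed for regions, 3 regions counted for Fgfr1 at each stage, and all 3 were shared.

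Fgfr2, whose isoforms serve both ectoderm and mesenchyme, lies on the minus strand at chr7:137306026-137410322 and had 19 E9.5 regions and 13 E10.5 regions. The median over all gene symbols was 1 region, and the counts of Fgfr2 stood at percentiles 99.7 and 98.0. The stretch of genome nearest to Fgfr2 starts is long (494.7 kb, leaving out a start inside Ctbp2). The 19 and 13 regions divided by this length gave 3.84 and 2.63 per 100 kb, against 1.61 and 1.76 for the lists. These densities are slightly too high for the stretch, as both counts include a region in Ctbp2 that lies outside it. The region over the main start scored 1689.18 at E9.5 (3607 bp wide, percentile 90.1) and 952.40 at E10.5 (2101 bp wide, percentile 85.1). The region in Ctbp2, at 3100 and 1757.23, counted for Fgfr2 only through an annotated transcript that starts there, and without it Fgfr2 had 18 and 12 regions.

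The stage-specific regions of Fgfr2 were spread unevenly around the gene. Upstream of the 5′ end there were 4 E9.5-specific regions and no E10.5-specific one, and inside the gene 3 and none. Downstream of the 3′ end 3 regions were specific to E9.5 and 4 to E10.5. The strongest E9.5-specific regions scored 607.50 on the downstream side (chr7:137191026-137192447), 435.51 at 11.9 kb upstream of the main start and 313.14 at 102.2 kb upstream. The strongest E10.5-specific region (chr7:137084554-137085668) scored 332.18 and lay farthest downstream, 226.3 kb from the nearest annotated start. Distances on the downstream side are to starts of non-coding transcripts near the 3′ end of Fgfr2. With only the outermost start of each gene, 6 and 4 regions counted for Fgfr2.

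Among its 9 shared regions, 3 distal ones ranked much higher at E10.5. The region printed above, 103.2 kb downstream of the nearest annotated start, scored 193.70 at E9.5 and 799.82 at E10.5, from percentile 39.6 to 81.8. A region 148.8 kb downstream scored 133.24 and 480.96 (percentiles 22.4 and 70.4). A region 32.5 kb upstream scored 87.58 and 455.02 (percentiles 3.60 and 69.0), a shift above 98.5% of the shifts of distal shared regions. At 6.58 kb upstream and 159.5 kb downstream the order was the other way, with 253.26 against 170.54 and 255.47 against 141.59.

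Fgfr3, a receptor best known from growing cartilage, lies at chr5:34064373-34079716. The region over its start scored 1854.16 at E9.5 and 290.29 at E10.5, and its width was 3489 bp and 1243 bp. Its percentile went from 91.7 to 56.4, a shift below that of all but 3.86% of the shared promoter-proximal regions. Its 2 other regions were E9.5-specific: 1 scored 679.35 and lay 16.2 kb upstream (chr5:34047493-34048907, the nearest E10.5 region 8.76 kb away), and 1 scored 148.39 just beyond the 3′ end. No distal region counted for Fgfr3 at E10.5. With only the outermost start of each gene, 5 E9.5 and 3 E10.5 regions counted for it, 3 of them shared and 1 promoter-proximal in each list. With a reciprocal overlap of at least 50%, the region over its start was no longer shared.

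Fgfr4, known from muscle progenitors and liver, lies at chr13:55254001-55270120 and had 3 regions at E9.5 and 1 at E10.5. Its promoter region (chr13:55253709-55254793) scored 358.83 at E9.5, at percentile 58.9. It was listed at E9.5 only, and the nearest E10.5 region lay 28.7 kb away. An E9.5-specific region downstream of the gene scored 229.87, and the single shared region, 14.8 kb from the nearest start, scored 228.07 and 112.98. A region that is not listed missed the calling threshold in that library pair, so closed chromatin and too few reads cannot be told apart.

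**Figure D2:**
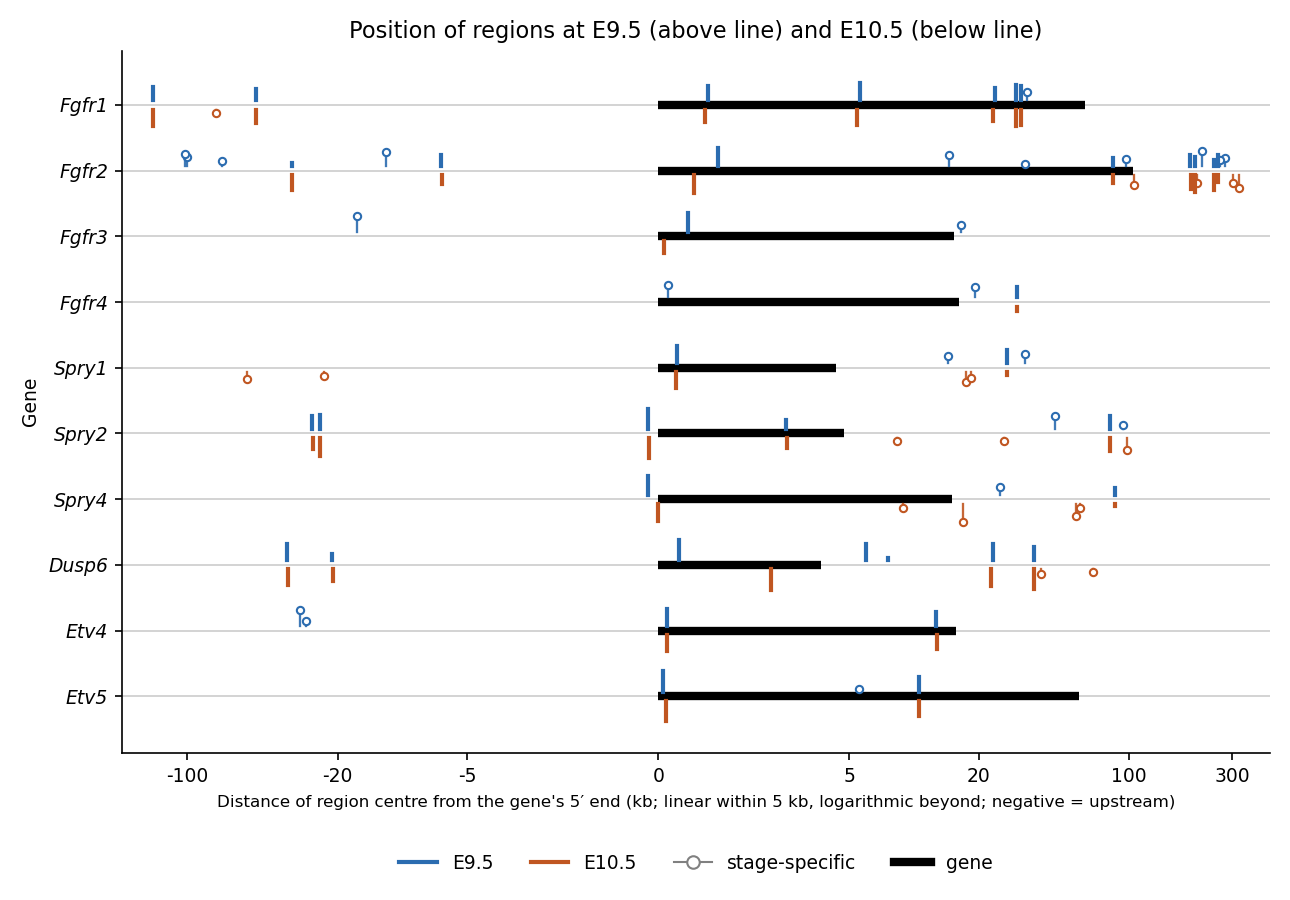
Position of each region relative to the annotated 5′ end of its gene, in kb (linear within 5 kb and logarithmic beyond, negative values upstream). E9.5 regions are drawn above and E10.5 regions below each line, the height of a tick follows the percentile of the score, open circles mark stage-specific regions and black bars mark genes. The region in Ctbp2 is left out. Upstream of Fgfr2 the open circles are all E9.5-specific, and downstream of Spry4 E10.5-specific circles prevail.

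Of the Sprouty genes, which encode inhibitors of receptor tyrosine kinase signalling, Spry2 had the most accessible start. The region over it (chr14:106293774-106298812 at E9.5) was at a score of 3100 in both lists and spanned 5039 bp and 5187 bp, where the median region had 1100 bp and 1000 bp. Only 165 E9.5 and 58 E10.5 regions were wider. Spry2 had 7 regions at E9.5 and 8 at E10.5, with 5 shared. The highest-scoring distal region, 24.1 kb upstream and printed above, scored 496.35 at E9.5 and 955.68 at E10.5 (percentiles 66.1 and 85.2). Its neighbour 26.3 kb upstream scored 363.79 and 244.95. Beyond the 3′ end, an E9.5-specific region scored 363.00 at 45.3 kb and an E10.5-specific region scored 258.08 at 97.2 kb from the start.

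Spry1 (chr3:37538869-37543520) had 4 regions at E9.5 and 6 at E10.5, with 2 shared. Its promoter region scored 1133.73 and 558.77 (percentiles 82.4 and 74.1). The other shared region, 26.9 kb downstream, scored 412.10 at E9.5 and 80.94 at E10.5, from percentile 62.1 to 2.72, and only 0.529% of the distal shared regions shifted further down. The 2 E9.5-specific regions scored 142.71 and 195.16. The 4 E10.5-specific regions scored from 103.99 to 188.62, all in the lower-scoring 50% of the list, and 2 of them lay upstream of the gene, where no E9.5 region was listed.

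Spry4 (chr18:38745922-38760922, minus strand) had 3 E9.5 regions and 6 E10.5 regions. The region over its start scored 1458.38 and 771.23 (percentiles 87.4 and 81.1). It also covers starts of Arhgap26 and 9630014M24Rik, so that regions farther upstream counted for those genes. The strongest stage-specific region of the 10 genes was E10.5-specific and lay just past the 3′ end of Spry4 (chr18:38743273-38744875), with a score of 1037.75 at percentile 86.7. The nearest E9.5 region was 6.95 kb away and was itself E9.5-specific, with a score of 154.85. The other E10.5-specific regions scored 271.18, 108.76 and 105.61, and the shared distal region 85.7 kb downstream scored 141.34 and 83.02.

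Dusp6 (chr10:98725865-98730122) had no E9.5-specific region, as all 7 of its E9.5 regions were shared by 1 bp or more. With a reciprocal overlap of at least 50%, 5 of the 7 were shared. At E9.5 the start lay in a region of 6103 bp with a score of 3100, followed by separate regions that scored 850.42 at 5.99 kb and 85.39 at 7.58 kb from the start. At E10.5 a single region of 11.1 kb (chr10:98723263-98734360), also at 3100, spanned the whole gene and both of those regions. Only 8 regions of the E10.5 list were wider. Because the centre of this region lay 2.95 kb from the start, it counted as distal, and when distance was taken from the nearest edge it counted as promoter-proximal. How far the start itself was open at each stage cannot be read from 2 regions that both score 3100.

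The flanks of Dusp6 held strong regions at both stages. The region printed above, 35.9 kb downstream, scored 389.88 at E9.5 and 2282.84 at E10.5, from percentile 60.9 to 97.2, a shift above 89.5% of those of distal shared regions. It was the highest E10.5 score of any distal region of the 10 genes apart from the one over the Dusp6 gene itself. A region 23.2 kb downstream scored 933.92 and 734.66, and one 34.2 kb upstream scored 794.03 and 500.07. The 2 E10.5-specific regions lay farther downstream, at 39.0 kb and 67.5 kb, and scored 115.95 and 84.82.

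Etv4 (chr11:101631056-101646685) had 4 E9.5 regions and 2 E10.5 regions. The region over its 5′ end scored 980.44 and 571.24 (percentiles 79.5 and 74.6). A second shared region, near internal starts, scored 490.96 and 408.78 (percentiles 65.8 and 66.2). The other 2 regions were E9.5-specific and lay side by side upstream, scoring 882.60 at 30.0 kb (chr11:101675685-101677770, percentile 77.4) and 115.99 at 28.0 kb. The nearest E10.5 region to the stronger one was 28.5 kb away. This was the highest-scoring E9.5-specific region of the 10 genes.

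Etv5 (chr16:22381382-22439792) had 3 regions at E9.5 and 2 at E10.5, all inside the gene or over its start. The region over the start scored 3129.08 at E9.5 (percentile 99.7) and 2506.18 at E10.5 (percentile 97.9). An intronic region 7.30 kb from the start scored 601.80 and 501.73, and 1 weak E9.5-specific region scored 81.70. With 1.4 and 0.933 regions per 100 kb, Etv5 was the only one of the 10 genes whose density was below that of the whole lists, 1.61 and 1.76.

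**Figure D3:**
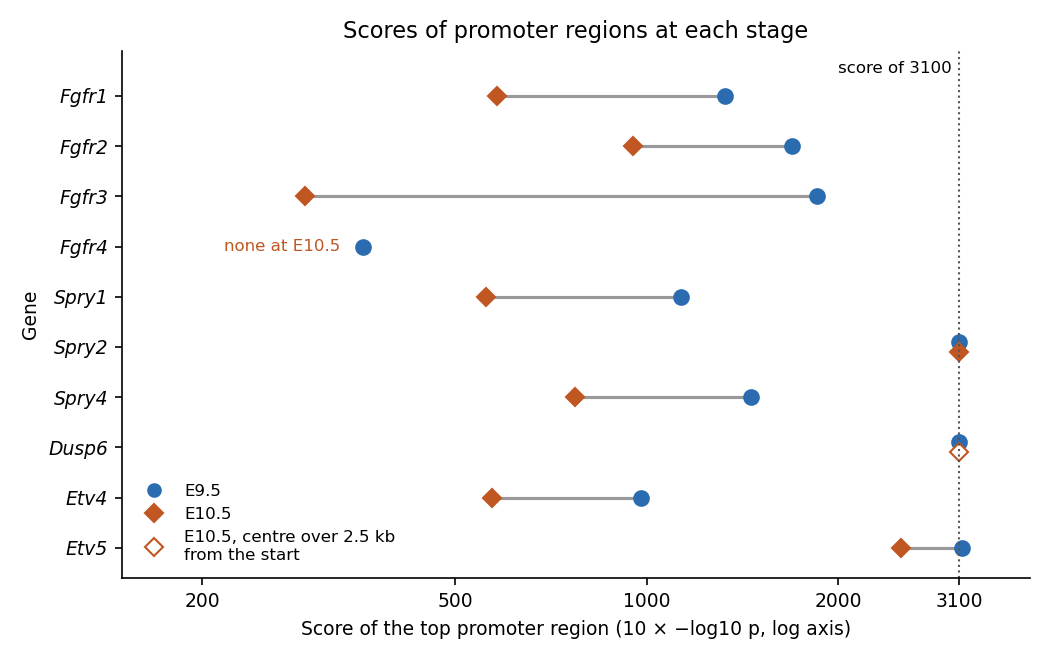
Score of the highest-scoring promoter-proximal region of each gene (horizontal axis, log scale, 10 times the negative log10 p) at E9.5 (circles) and E10.5 (diamonds), with the region in Ctbp2 left out and the score of 3100 dotted. The open diamond is the 11.1 kb region over Dusp6, whose centre lies more than 2.5 kb from the start. The Fgfr1 region lies near internal starts and not over the annotated 5′ end. Spry2 and Dusp6 were at 3100 at both stages, Fgfr3 went from 1854.16 to 290.29, and Fgfr4 had no such region at E10.5. Over the whole lists, the median score of promoter-proximal regions was also lower at E10.5, 638.29 against 898.9 at E9.5.

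Score percentiles near starts were more often lower than higher at E10.5, in these genes as in the lists. Of the 13 shared promoter-proximal regions, 9 had a lower percentile at E10.5 and 4 a higher one, with a median shift of -4.88 percentile points, where all 14190 such pairs had a median of -1.47 and 41.6% were higher. Of the 25 shared distal regions, 17 were higher and 8 lower, with a median shift of 5.98 points, where all 15693 such pairs had a median of 4.04 and 58.2% were higher. The higher ones include the Dusp6 regions that scored 850.42 and 85.39 at E9.5. Both were paired with the 11.1 kb E10.5 region and its score of 3100, as was the Dusp6 start, so these are not separate gains. Shifts below the lowest 5% or above the highest 5% of their class were found in 4 of 38 pairs (10.53%), and any such cut takes 10% of all pairs. These were the Fgfr3 start, the Spry1 downstream region, the Fgfr2 region 32.5 kb upstream and the weak Dusp6 region that lay within the wide E10.5 region.

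**Figure D4:**
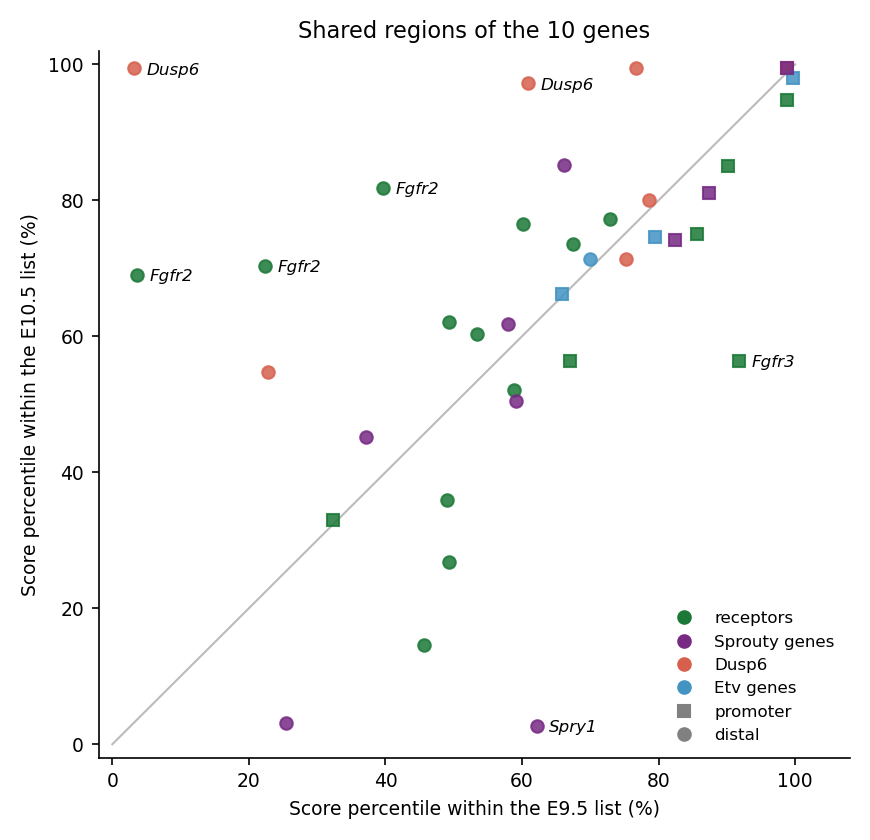
Percentile of the score within the E9.5 list (horizontal axis) and within the E10.5 list (vertical axis) for the 38 shared pairs of the 10 genes, with squares for promoter-proximal and circles for distal regions and colours for the gene groups. Apart from the Fgfr3 start, promoter-proximal pairs lie within 10.6 points of the diagonal. The named distal pairs of Fgfr2 and Dusp6 lie far above it and that of Spry1 far below it. The Dusp6 pair farthest above it is a weak E9.5 region (score 85.39) within the 11.1 kb E10.5 region.

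Stage-specific distal regions of the 10 genes also differed in base composition in the way those of the lists did. In a fixed window around the centre, the median GC content was 52.5% for the 20 distal regions specific to E9.5 and 47.3% for the 18 specific to E10.5. All stage-specific distal regions had medians of 50.8% and 44.2%. The 25 shared distal regions at E9.5 had a median of 52.5%, so the difference lay in the E10.5-specific regions. How base composition bears on detection was not tested.

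Motif matches were counted on both strands in the same window and are descriptions of letters only. CTGTCA (MEIS/PKNOX) was in 11 of 45 distal E9.5 regions and 13 of 42 distal E10.5 regions, beside 25.4% and 23.8% of all distal regions. In promoter-proximal regions it was in 0 of 16 and 1 of 12, beside 15.2% and 14.8%. TGACTCA (AP-1) was in 4 of 45 and 2 of 42 distal regions, beside 5.85% and 5.28%. It was in 0 of 16 and 0 of 12 promoter-proximal ones, beside 2.68% and 2.66%. GGCGCC (BMP-type SMAD) was in 2 of 16 promoter-proximal E9.5 regions and 4 of 12 E10.5 ones, beside 24.4% and 24.7%. In distal regions it was in 3 of 45 and 0 of 42, beside 5.91% and 4.56%. CCGGAAGT (ETS) was in none of these windows of the 10 genes. It was in 4.41% and 4.79% of all promoter-proximal and in 0.544% and 0.516% of all distal regions. TGACGTCA (CRE) and the CArG box were found in none either. CRE was in 1.76% and 2.01% of all promoter-proximal and in 0.468% and 0.453% of all distal regions. For the CArG box these shares were 0.888% and 0.923%, and 1.52% and 1.74%. ATCAAAG (TCF/LEF) was in 0 of 45 and 2 of 42 distal regions, beside 5.42% and 6.51%. TGATTTAT (PBX-HOX) was in 2 of 45 and 0 of 42, beside 2.96% and 3.95%. Neither was found in a promoter-proximal region of the 10 genes.

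Other genes of the Fgf pathway were counted from lists chosen for their roles. The apical ridge ligands Fgf4, Fgf8, Fgf9 and Fgf17 together had 10 regions at E9.5 and 9 at E10.5, with 5 and 4 stage-specific (both intervals of the share included that of the whole list). A promoter region was listed for 3 of these 4 ligands at E9.5 and for 1 at E10.5, Fgf9. Fgf10, the mesenchymal ligand, had 6 regions at E9.5, 2 of them stage-specific, and 19 at E10.5, of which 15 (78.9%, interval 56.7 to 91.5) were stage-specific. All 17 signal transducers between the receptors and ERK had a promoter region at both stages, and 9 of their 33 E9.5 regions (27.3%) and 5 of their 29 E10.5 regions (17.2%) were stage-specific, beside 29.9% and 35.0% of all regions.

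The other inhibitors and co-receptors, among them Spred1 and Il17rd, had 73 regions at E9.5 with 23 stage-specific (31.5%, interval 22.0 to 42.9) and 85 at E10.5 with 35 stage-specific (41.2%, interval 31.3 to 51.8), close to the whole-list 29.9% and 35.0%. Promoter regions were listed for 14 of the 15 matched genes of this list, all but Klb, at both stages. The other ETS factors had 46 regions with 15 stage-specific (32.6%) at E9.5 and 55 with 23 (41.8%) at E10.5, and both intervals included the whole-list shares. BMP feedback inhibitors such as Grem1, Smad6 and Smad7 served as a comparison set from another pathway, and likeness between sets was not measured. They had 13 stage-specific regions among 46 E9.5 regions (28.3%) and 11 among 49 E10.5 regions (22.4%), beside 29.9% and 35.0% of all regions. The intervals of the BMP inhibitor shares overlapped those of the receptors and of the 6 Fgf feedback genes, which had 8 of 28 (28.6%) and 13 of 31 (41.9%).

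**Figure D5:**
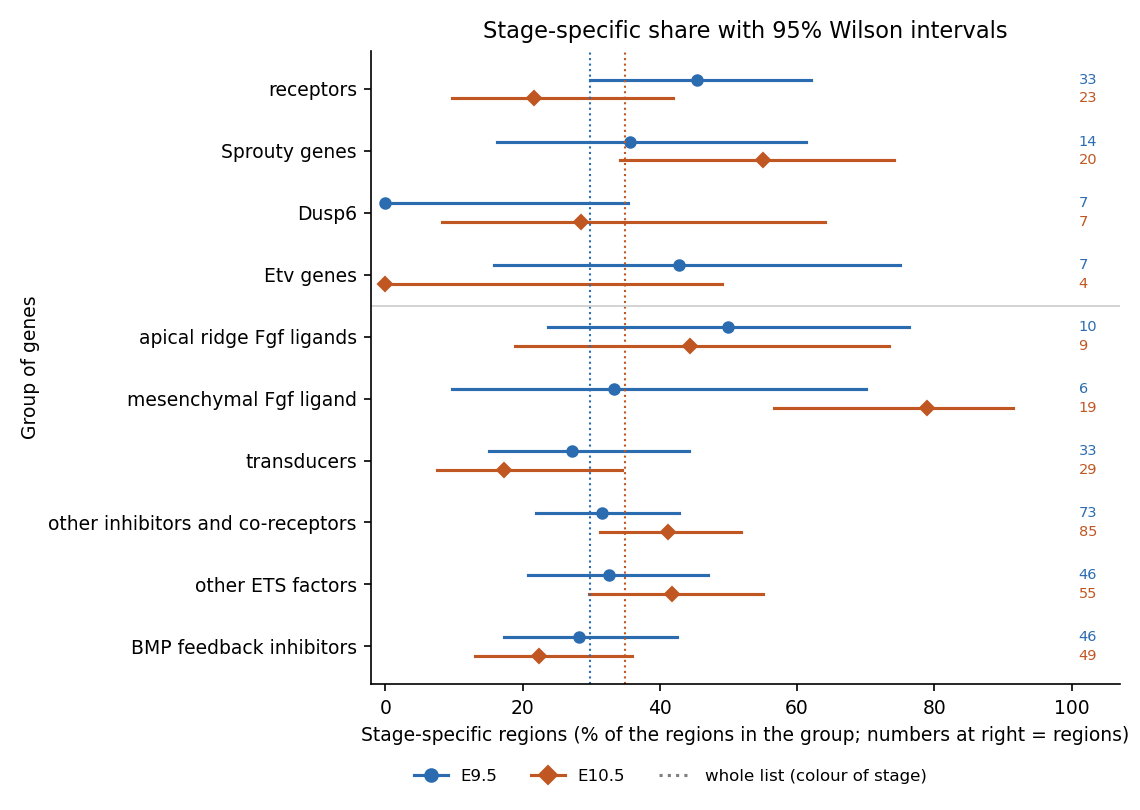
Stage-specific regions as a percentage of the regions in each group (horizontal axis) at E9.5 (circles) and E10.5 (diamonds), with 95% Wilson intervals as lines, the share of the whole list dotted in the colour of the stage and the number of regions at the right. Groups above the grey line are the 10 genes and those under it the other lists. The Fgf10 interval at E10.5 (56.7 to 91.5) lies above the 35.0% of its list, whereas the other intervals at E10.5 include it or end just short of it.

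Promoter regions of marker genes were compared with the tissue labels. Of all protein-coding gene symbols, 65.2% had one at E9.5 and 62.6% at E10.5, so a listed promoter does not by itself mark a tissue. All 6 limb genes (Tbx5, Prrx1, Hand2, Lhx2, Lhx9 and Hoxd11) had one at both stages. The hindlimb gene Tbx4 had one at both stages and Pitx1 at E9.5 only. All 4 somite and trunk genes and both matched neural genes had one at both stages. The endothelial genes Cdh5 and Tek and the blood gene Gata1 had none at either stage, and Hbb-bh1 had one at E9.5 only. What share of the Fgf gene regions came from trunk cells was not tested.

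Counts of regions, shared regions and promoter regions in both lists matched in no other gene for Fgfr1, Fgfr2 and Dusp6. The same counts as those of Fgfr3 were found for 110 other genes, and as those of Spry2 for 7 others.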

How the data were processed

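ATAC-seq libraries of 2 replicates per stage were aligned by the authors to mm9 with Bowtie 1.1.0, and regions were called with MACS 1.4, as the submitters' notes and the methods state. Both replicates of a stage were merged by the authors with MSPC into 1 list. The deposited values are the coordinates and a score per region, 10 times the negative log10 of the best p-value, so depth and replicate spread were not available here and precision cannot be stated beyond counting error. Regions were annotated with GENCODE vM1 on NCBIM37 (22380 protein-coding genes, 70064 starts), using Python 3.11.15 and pandas 2.3.3, and 0 regions ran past a chromosome end. Distances were taken from region centres, overlap needed 1 bp, and GC content and motifs were read from 301 bp around the centre with pysam 0.24.0. Assignment and overlap were tested on simulated data and against bedtools. No test was made. The genes, lists and rules were chosen with earlier results of these data known. All 10 genes were named, with their top promoter and distal regions and every stage-specific region in the higher-scoring 50% of a list. Alternatives changed the overlap, promoter distance, starts and score threshold.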

Additional observations from a re-analysis of the deposited data

How the results depend on the processing

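Across 12 alternative settings, 62 of 68 values that answer a comparison stayed within the interval of the main share or within 1.5 times the main count, and 6 did not. With the higher-scoring 50% of each list, the genes had 33 regions at each stage, 75.8% of the E9.5 regions were shared and 39.4% were promoter-proximal. The shares over all regions were not calculated for that setting. With the higher-scoring 50% of one list against the whole other list, 78.8% of the E9.5 and 87.9% of the E10.5 regions were shared. Of all regions scoring as high, 10.8% at E9.5 and 18.1% at E10.5 were not shared, so most such regions were shared in the lists too. Single genes and gene groups moved in 84 of 676 values, among them Fgfr1, which held 3 regions at each stage, and Fgfr2, which held 9 and 6, when starts of genes of all types were used. With the outermost start of each gene, 7 of 21 receptor regions were E9.5-specific and 1 of 15 was E10.5-specific. A promoter distance of 5 kb or distance from the nearest edge gave 9 genes with a promoter region at E10.5, since Dusp6 then counted. The settings with starts of protein-coding transcripts only and without the Fgfr2 start in Ctbp2 were added after seeing the data. Replicates could not be separated. No paired analysis was possible because the files give no value for a single replicate, and leaving out a replicate was not run for the same reason. Scores of 3100 or more and unknown depth restrict what score differences can show.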
